A study of Mus musculus with 12 samples.

Results

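NRF2, encoded by Nfe2l2, and KEAP1 form the main sensor of electrophiles and oxidants in lung cells. KEAP1 holds NRF2 in the cytoplasm and delivers it to a ubiquitin ligase. When its reactive cysteines are modified, NRF2 escapes degradation, pairs with small MAF proteins and binds antioxidant response elements in the promoters of genes for glutathione synthesis, thioredoxin recycling, quinone reduction and haem breakdown. Described here are 10 genes of this system: the pair Nfe2l2 and Keap1, and the targets Slc7a11, Gclc, Gclm, Gsr, Txnrd1, Srxn1, Nqo1 and Hmox1. The members were taken by symbol. All 21 probe sets that carry 1 of these symbols alone were read, of 45037 on the array, and the probe set with the highest mean stands for its gene. All 10 genes passed the filter on low signal and are 10 of 12309 genes tested, and 19 of the 21 probe sets passed it.

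The data are lung RNA profiles of male C57BL/6 mice aged 8 to 12 weeks on Affymetrix mouse genome arrays, 12 arrays in 4 groups of 3. The groups are nmMLCK-/- mice with ventilator-induced lung injury (VILI), nmMLCK-/- mice breathing spontaneously (SB), wild-type mice with VILI and wild-type mice with SB. Lungs in the VILI groups were ventilated for 4 h at 65 breaths/min with no end-expiratory pressure (0 cm H2O), at a tidal volume that the sample labels give as 40 ml/kg and the series text as 30 ml/kg. The design has no ventilated group with small breaths, so the size of the breath and ventilation as such cannot be told apart. nmMLCK-/- names the deletion of nmMLCK, the non-muscle form of the myosin light chain kinase. The labels do not say how the allele was made or whether controls were littermates. The series text counts 3 animals in a group, but the array labels carry only a replicate number, so p-values measure the spread between these arrays.

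Values are log2 signals, on which a difference of 1 is a factor of 2. Any 2 arrays correlated at 0.981 to 0.998 over all probe sets. The leading Mylk probe set, whose gene encodes both kinase isoforms, stood at 12.68 to 12.77 in nmMLCK-/- VILI and 12.71 to 12.83 in nmMLCK-/- SB lungs, against 12.77 to 12.95 in wild-type VILI and 12.98 to 13.05 in wild-type SB lungs. The files do not say which isoform it reads, so it does not check the genotype labels. The lung markers Sftpc (15.70 to 15.81), Ager (15.17 to 15.40) and Scgb1a1 (16.15 to 16.22) were high on every array. In tissue RNA, fewer cells of a type and less RNA per cell cannot be told apart. A pair of SB arrays, nmMLCK-/- SB replicate 2 and wild-type SB replicate 3, stood apart from the other 4 in the members. Both arrays stood apart over all genes too, with larger shares at least 1 log2 from both others of their group than any other array. These shares were 1.71% below and 1.10% above in nmMLCK-/- SB replicate 2, and 1.95% below and 2.80% above in wild-type SB replicate 3. In the fit with array weights this pair had the lowest weights, 0.374 and 0.237. Some results below are also given without these arrays. Others, among them those of Mafg, Mt1, Mt2 and several second probe sets, are given with all arrays only. For those, a single value does not mean that the 2 arrays leave it unchanged.

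The antioxidant response element core TGACNNNGC was searched on both strands in the RefSeq promoters of the members (GRCm38.p6, 250 bases before to 50 after the start of a transcript). The table holds 9 promoters of 7 members, and 4 of the 9, in 4 genes, held the core, against 12.4% of the 32851 promoters of the table. The members were chosen as genes of the NRF2 system, whose targets NRF2 binds at this element. The 2 shares are therefore a description and no support for that choice. The stretches around 3 of these matches are shown, among them that of the regulator Nfe2l2. They are printed 5′ to 3′ on the gene's strand, with the core in capitals.
Nfe2l2, chr2:75704855-75704913, minus strand, core starting 240 bases before the start: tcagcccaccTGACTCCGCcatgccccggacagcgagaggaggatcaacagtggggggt
Gclm, chr3:122245383-122245471, plus strand, 134 bases before the start: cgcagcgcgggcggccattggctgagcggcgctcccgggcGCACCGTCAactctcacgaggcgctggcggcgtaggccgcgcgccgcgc
Txnrd1, chr10:82859074-82859162, plus strand, 92 bases before the start: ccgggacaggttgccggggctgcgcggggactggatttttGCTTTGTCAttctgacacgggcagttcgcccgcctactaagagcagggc
In Gclm and Txnrd1 the core lies on the opposite strand and so reads GCNNNGTCA. Srxn1 held GCTAGGTCA starting 28 bases after its start on chromosome 2. Txnrd1 had 3 promoters, and 1 of them held the core. The windows of Keap1, Nqo1 and Slc7a11 did not contain these letters. A match is a stretch of letters and was not tested for binding, and an element farther upstream would lie outside the window.

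Among spontaneously breathing lungs the targets did not have 1 resting level. In nmMLCK-/- SB replicate 2 and in wild-type SB replicate 3, 9 of the 10 members were below both other arrays of their group, and 6 were below both by at least 1 log2. Of all genes tested, 32% were below both others in nmMLCK-/- SB replicate 2 and 32.1% in wild-type SB replicate 3. The 6 were the same genes in both arrays: Slc7a11, Hmox1, Srxn1, Gclc, Txnrd1 and Gclm. Over all genes, 1.71% were at least 1 log2 below in nmMLCK-/- SB replicate 2 and 1.95% in wild-type SB replicate 3. Being lowest by any margin was not particular to these arrays: 9 members were also below both others in wild-type VILI replicate 1 (38.6% of all genes) and 8 in nmMLCK-/- VILI replicate 3 (33.2%). On the other 10 arrays no member was 1 log2 below both of its group, where 0.0325% to 0.626% of all genes were. These counts describe 2 arrays that were already known to stand apart, and no test was made of them.

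**Figure D1:**
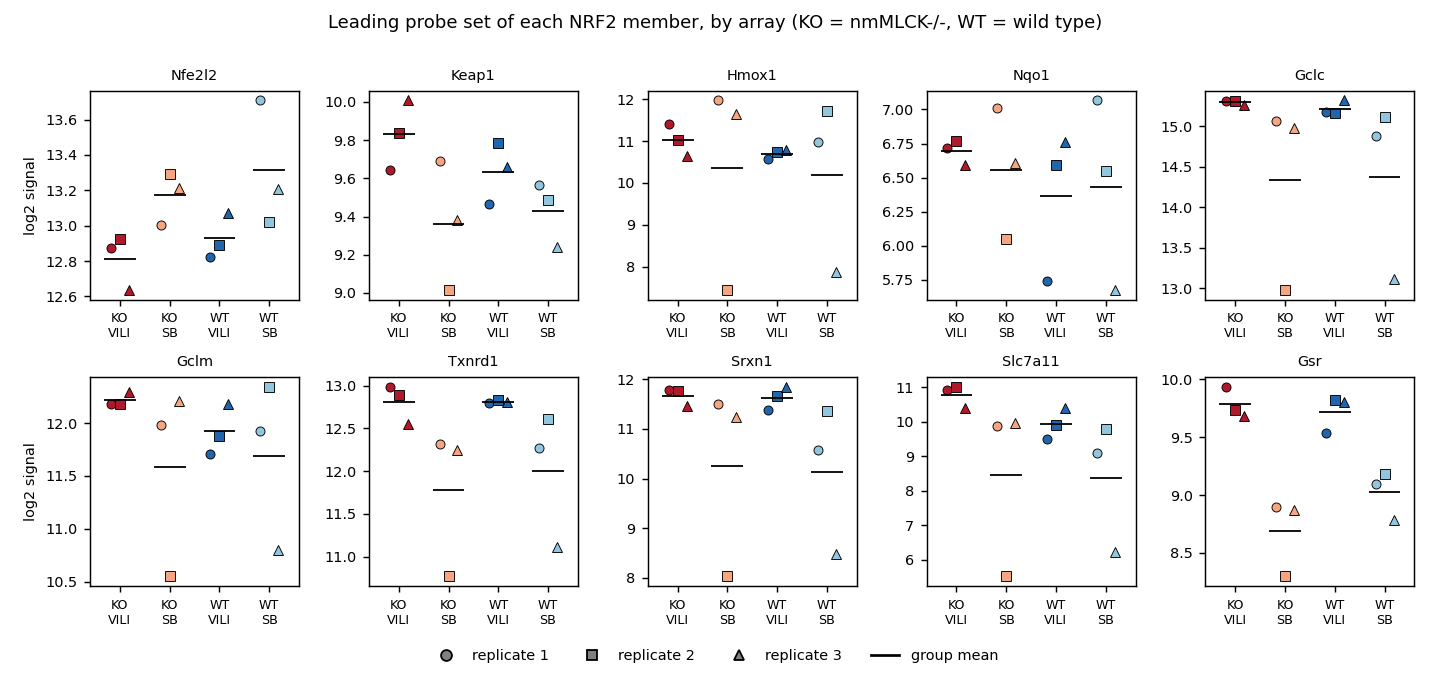
Log2 signal (vertical axis, own scale for each gene) of the leading probe set of each member in nmMLCK-/- VILI, nmMLCK-/- SB, wild-type VILI and wild-type SB lungs; each point is 1 array, its shape gives the replicate number and the line is the group mean of 3 arrays. In 6 genes nmMLCK-/- SB replicate 2 and wild-type SB replicate 3 lie at least 1 log2 under the rest of their group, while Gsr is higher in all 6 VILI arrays than in all 6 SB arrays.

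Slc7a11 encodes the transport subunit of the cystine-glutamate antiporter, which supplies cysteine for glutathione. It had log2 signals of 10.91, 11.02 and 10.40 in nmMLCK-/- VILI lungs, against 9.88, 5.52 and 9.98 in nmMLCK-/- SB lungs. In wild-type VILI lungs it had 9.51, 9.90 and 10.41, against 9.10, 9.80 and 6.24 in wild-type SB lungs. The low arrays were 4.41 and 3.20 log2 under the mean of the other 2 in the nmMLCK-/- and the wild-type SB group, which made Slc7a11 the most variable member (range 5.50 log2 over 12 arrays). The VILI arrays were above all SB arrays in nmMLCK-/- lungs and overlapped them in wild-type lungs.

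Gclc and Gclm encode the catalytic and the modifier subunit of glutamate-cysteine ligase, the rate-limiting enzyme of glutathione synthesis. Gclc had 15.31, 15.32 and 15.26 in nmMLCK-/- VILI lungs and 15.07, 12.98 and 14.98 in nmMLCK-/- SB lungs. It had 15.17, 15.16 and 15.32 in wild-type VILI lungs and 14.87, 15.12 and 13.11 in wild-type SB lungs. The 4 other SB arrays, at 14.87 to 15.12, were thus close to the VILI arrays. Gclm had 12.18, 12.18 and 12.30 in nmMLCK-/- VILI lungs against 11.98, 10.55 and 12.21 in nmMLCK-/- SB lungs. In wild-type VILI lungs Gclm had 11.71, 11.88 and 12.18, and in wild-type SB lungs 11.92, 12.34 and 10.80. The low arrays were 2.05 and 1.89 log2 under the others for Gclc, and 1.54 and 1.33 for Gclm, in nmMLCK-/- and wild type. The VILI arrays were above the SB arrays in both genotypes for Gclc and overlapped them in both for Gclm.

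Gsr encodes glutathione reductase, which regenerates reduced glutathione with NADPH. It had 9.94, 9.73 and 9.68 in nmMLCK-/- VILI lungs against 8.89, 8.30 and 8.87 in nmMLCK-/- SB lungs. It had 9.54, 9.82 and 9.80 in wild-type VILI lungs against 9.09, 9.19 and 8.79 in wild-type SB lungs. Gsr was thus higher in each VILI array than in any SB array of either genotype, and its low SB arrays were only 0.59 (nmMLCK-/-) and 0.35 log2 (wild type) under the others.

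Txnrd1, the cytosolic thioredoxin reductase, and Srxn1, sulfiredoxin, which repairs overoxidised peroxiredoxins, serve the thiol branch. Txnrd1 had 12.99, 12.89 and 12.55 in nmMLCK-/- VILI lungs, against 12.32, 10.77 and 12.25 in nmMLCK-/- SB lungs. It had 12.79, 12.83 and 12.81 in wild-type VILI lungs, against 12.27, 12.61 and 11.11 in wild-type SB lungs. In both genotypes the VILI arrays of Txnrd1 were above the SB arrays. Srxn1 had 11.79, 11.76 and 11.46 in nmMLCK-/- VILI lungs and 11.50, 8.03 and 11.23 in nmMLCK-/- SB lungs. In wild-type VILI lungs it had 11.38, 11.67 and 11.85, and in wild-type SB lungs 10.57, 11.37 and 8.48. Srxn1 overlapped between VILI and SB in nmMLCK-/- lungs, and in wild-type lungs the lowest VILI and the highest SB array (11.38 and 11.37) hardly differed. The low arrays were 3.33 and 2.49 log2 under the others for Srxn1, and 1.51 and 1.33 for Txnrd1, in nmMLCK-/- and wild type.

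Hmox1, the inducible haem oxygenase, breaks haem down to biliverdin, iron and carbon monoxide. It had 11.40, 11.02 and 10.65 in nmMLCK-/- VILI lungs and 11.97, 7.44 and 11.64 in nmMLCK-/- SB lungs. In wild-type VILI lungs it had 10.57, 10.75 and 10.79, and in wild-type SB lungs 10.98, 11.72 and 7.87. The 4 SB arrays that did not stand apart were all higher than the VILI arrays of their own genotype, and the 2 low arrays were 4.37 (nmMLCK-/-) and 3.48 log2 (wild type) under the others. Nqo1, a quinone reductase, was the dimmest leading member, with 6.60 to 6.77 in nmMLCK-/- VILI and 6.05 to 7.01 in nmMLCK-/- SB lungs. It had 5.74 to 6.76 in wild-type VILI and 5.68 to 7.07 in wild-type SB lungs, so its groups overlapped. Its low SB arrays were the lowest of their groups by 0.55 (nmMLCK-/-) and 0.88 log2 (wild type).

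**Figure D2:**
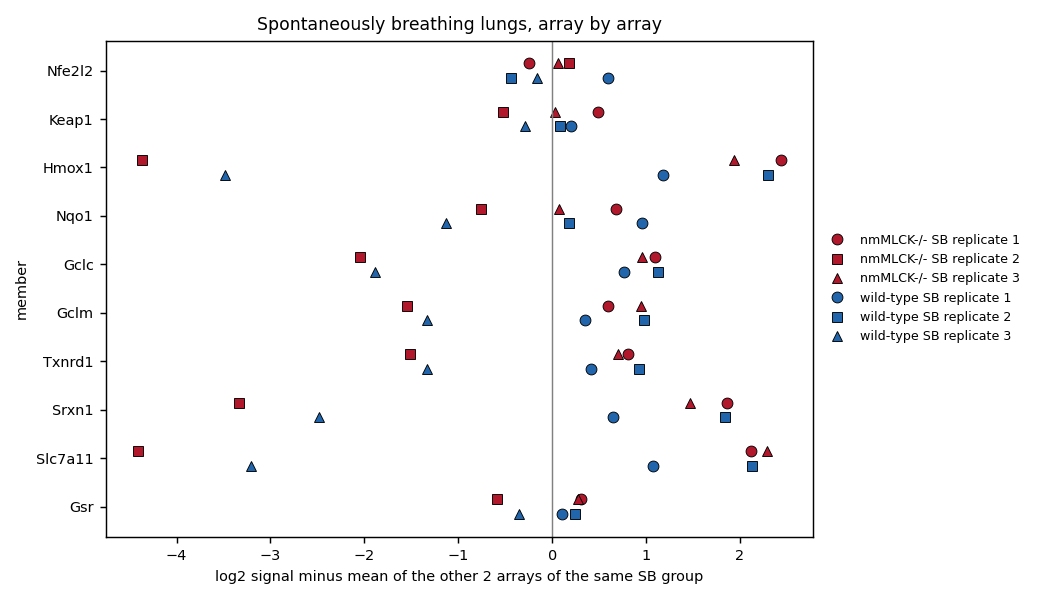
Distance of each SB array from the mean of the other 2 arrays of its group (horizontal axis, log2), for the leading probe set of each member (vertical axis); red points are nmMLCK-/- SB, blue points wild-type SB, and shapes give the replicate. The red squares and blue triangles reach -4.41 (Slc7a11) and -3.48 (Hmox1), whereas for Nfe2l2 all 6 arrays lie between -0.43 and 0.59.

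By their leading probe sets the regulators Keap1 and Nfe2l2 had the smallest ranges of the 10 members over the 12 arrays, 0.99 and 1.07 log2. Nfe2l2 had 12.87, 12.92 and 12.64 in nmMLCK-/- VILI lungs against 13.003, 13.29 and 13.22 in nmMLCK-/- SB lungs. It had 12.82, 12.89 and 13.07 in wild-type VILI lungs against 13.71, 13.02 and 13.21 in wild-type SB lungs. Neither low SB array was the lowest of its group for Nfe2l2. Keap1 had 9.64, 9.84 and 10.01 in nmMLCK-/- VILI lungs and 9.69, 9.01 and 9.38 in nmMLCK-/- SB lungs. In wild-type VILI lungs Keap1 had 9.47, 9.78 and 9.66, and in wild-type SB lungs 9.56, 9.49 and 9.24. The low SB arrays were the lowest of their group for Keap1, by 0.37 (nmMLCK-/-) and 0.25 log2 (wild type).

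Centred on each gene's mean, the median of the 10 members was 0.57, 0.44 and 0.41 in nmMLCK-/- VILI lungs and 0.20, -1.44 and 0.17 in nmMLCK-/- SB lungs. It was 0.06, 0.29 and 0.39 in wild-type VILI lungs and 0.03, 0.29 and -1.15 in wild-type SB lungs. The median range of a member was 0.51 log2 over the 6 VILI arrays, against 1.82 log2 over the 6 SB arrays. For all genes tested these medians were 0.42 and 0.51 log2. The probe sets show the same as the genes: of 19 past the filter, 18 were the lowest of their group in nmMLCK-/- SB replicate 2 and 18 in wild-type SB replicate 3, 11 and 12 of them by at least 1 log2.

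VILI against SB asks what ventilation does to these genes in each genotype. In nmMLCK-/- lungs 1 of 10 members, Gsr, passed as higher (limma, adjusted p under 0.05), where 8.12% of all genes tested were higher and 12.6% lower. In wild-type lungs it was also Gsr alone, where 6.34% were higher and 9.03% lower. Over both genotypes together Gsr and Txnrd1 rose and Nfe2l2 fell, against 14.1% of genes higher and 22.6% lower. The median log2 difference of the members was 0.81 in nmMLCK-/-, 0.60 in wild type and 0.74 over both, beside -0.05 for all genes in each of these comparisons, but most of the large differences came with a large error. Over both genotypes 6 of 7 neutrophil markers were also higher (median 2.38 log2) and 5 of 6 ciliated cell markers lower (median -0.63 log2). By genotype, 6 of the 7 neutrophil markers were higher in nmMLCK-/- (median 3.25 log2) and 1 in wild type (median 1.49 log2). In wild-type SB replicate 3 all 7 were at least 1 log2 above the others of its group. The part of neutrophils and ciliated cells in the members' values was not tested. Without overlap between VILI and SB, 4 members were above in nmMLCK-/- (Gclc, Txnrd1, Slc7a11 and Gsr; 17.9% of all genes) and 4 in wild type (Gclc, Txnrd1, Srxn1 and Gsr; 15.5%). Below without overlap was 1 member in nmMLCK-/-, Nfe2l2, and 0 in wild type. The share of all genes below without overlap was not computed.

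Gsr rose by 1.10 ± 0.17 log2 in nmMLCK-/- lungs (SE, n = 3 arrays per group; limma adjusted p = 0.00309) and by 0.70 ± 0.17 in wild-type lungs (adjusted p = 0.0232). Over both genotypes it rose by 0.90 ± 0.12 (adjusted p = 0.000509). In wild type Gsr no longer passed when SB replicate 1 was left out (0.73, adjusted p = 0.0577), or SB replicate 3 (0.58, 0.0619), VILI replicate 2 (0.65, 0.0742) or VILI replicate 3 (0.66, 0.0759). Its second probe set gave 1.04 ± 0.32 in nmMLCK-/- lungs and 0.64 ± 0.32 in wild-type lungs (adjusted p = 0.0499 and 0.221 over all 22443 probe sets tested). The nmMLCK-/- call of that probe set did not last without the 2 low SB arrays (0.71, adjusted p = 0.106).

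Txnrd1 rose by 0.92 ± 0.31 over both genotypes (adjusted p = 0.0381), with 1.03 ± 0.43 in nmMLCK-/- lungs and 0.81 ± 0.43 in wild-type lungs that did not pass alone (adjusted p = 0.113 and 0.232). The call was lost with no filter on low signal (adjusted p = 0.0737), with the mean over probe sets (0.72, adjusted p = 0.0798) and in 8 of the 12 fits that leave out 1 array, all but those without wild-type SB replicate 1 or 2 or nmMLCK-/- SB replicate 1 or 3. Its value there ran from 0.67 without nmMLCK-/- SB replicate 2 (adjusted p = 0.0566) to 0.99 without nmMLCK-/- VILI replicate 3 (0.0506). Slc7a11 differed by 2.32 ± 1.15 in nmMLCK-/- and 1.56 ± 1.15 in wild-type lungs, and Srxn1 by 1.42 ± 0.88 and 1.49 ± 0.88. Gclc differed by 0.96 ± 0.58 in nmMLCK-/- and 0.85 ± 0.58 in wild-type lungs, and Gclm by 0.64 ± 0.44 and 0.23 ± 0.44. These 4 did not pass in either genotype (adjusted p from 0.173 to 0.759). Nor did Hmox1, at 0.67 ± 1.18 in nmMLCK-/- and 0.51 ± 1.18 in wild-type lungs, or Nqo1, at 0.14 ± 0.37 and -0.06 ± 0.37.

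Leaving out nmMLCK-/- SB replicate 2 and wild-type SB replicate 3 together changed both the sizes and the errors. These arrays were singled out with the members' low values in them known, so the smaller errors follow from the choice. The values here are given as a description, with no call read from them. Where calls or counts without the 2 arrays are given in other paragraphs, they too are a description and not a test. Over both genotypes Gsr stood at 0.74 ± 0.08 log2 without the 2 arrays, against 0.90 ± 0.12 with all arrays. Txnrd1 stood at 0.45 ± 0.10, against 0.92 ± 0.31 with all arrays. Slc7a11 stood at 0.67 ± 0.21, against 1.94 ± 0.82, Gclc at 0.25 ± 0.07, against 0.90 ± 0.41, and Srxn1 at 0.49 ± 0.17, against 1.46 ± 0.62. All 5 kept a positive difference, smaller than with all arrays.

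Hmox1 has no settled direction. It was -0.72 ± 0.18 over both genotypes without the 2 low SB arrays, against 0.59 ± 0.83 with all arrays (adjusted p = 0.597), and the turn follows from removing the arrays in which Hmox1 was 4.37 and 3.48 log2 low. By genotype it was -0.79 ± 0.26 in nmMLCK-/- and -0.65 ± 0.26 in wild-type lungs without them. Gclm, at -0.04 ± 0.12, and Nqo1, at -0.28 ± 0.20, also changed sign over both genotypes.

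**Figure D3:**
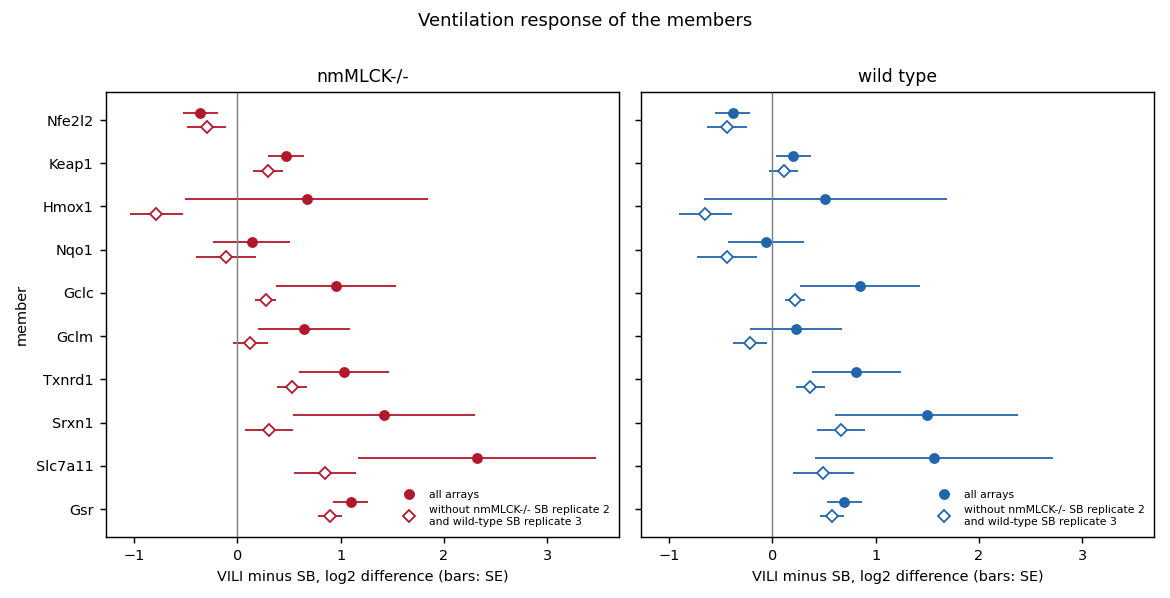
VILI minus SB (horizontal axis, log2 difference; bars are the SE of the limma fit) for each member in nmMLCK-/- lungs (left) and wild-type lungs (right), with all 12 arrays (filled circles) and without nmMLCK-/- SB replicate 2 and wild-type SB replicate 3 (open diamonds). The 2 arrays were singled out with the members' values known; without them Gsr has 0.90 and 0.58, Hmox1 changes sign to -0.79 and -0.65, and Slc7a11 shrinks to 0.85 and 0.49.

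Nfe2l2 gave opposite answers by its 2 probe sets. The leading one fell by 0.37 log2 over both genotypes (SE 0.12, limma adjusted p = 0.0326), with -0.36 ± 0.17 in nmMLCK-/- and -0.38 ± 0.17 in wild-type lungs. It no longer passed when any of 6 arrays was left out: wild-type VILI replicate 1 (-0.35) and 2 (-0.36), nmMLCK-/- SB replicate 2 (-0.34) and 3 (-0.36), and nmMLCK-/- VILI replicate 1 (-0.39) and 3 (-0.33), with adjusted p from 0.0514 to 0.0725. It was also lost without both low SB arrays (-0.37, adjusted p = 0.0651) and with array medians set equal (-0.33, adjusted p = 0.0521).

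The other Nfe2l2 probe set was dimmer. It had 9.44, 9.50 and 8.61 in nmMLCK-/- VILI lungs against 6.69, 4.71 and 6.44 in nmMLCK-/- SB lungs. It had 10.68, 9.95 and 9.15 in wild-type VILI lungs against 7.89, 8.50 and 5.53 in wild-type SB lungs. All VILI arrays were above all SB arrays in both genotypes, and the 2 low SB arrays were again the lowest of their groups. It rose by 3.24 ± 0.77 in nmMLCK-/- lungs (adjusted p = 0.0205; 7.23% of probe sets were higher) and by 2.93 ± 0.54 over both genotypes (adjusted p = 0.00333; 13.7% were higher). The wild-type difference, 2.62 ± 0.77, did not pass (adjusted p = 0.0534). Without both low SB arrays it was 2.62 ± 0.44 in nmMLCK-/- and 1.73 ± 0.44 in wild-type lungs. Leaving out single arrays ended the nmMLCK-/- call without nmMLCK-/- SB replicate 2 (2.62, adjusted p = 0.0744), nmMLCK-/- VILI replicate 1 (3.11, 0.053) or nmMLCK-/- VILI replicate 2 (3.08, 0.0711). The files give no position for either probe set, so which part of the transcript each reads was not determined here.

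**Figure D4:**
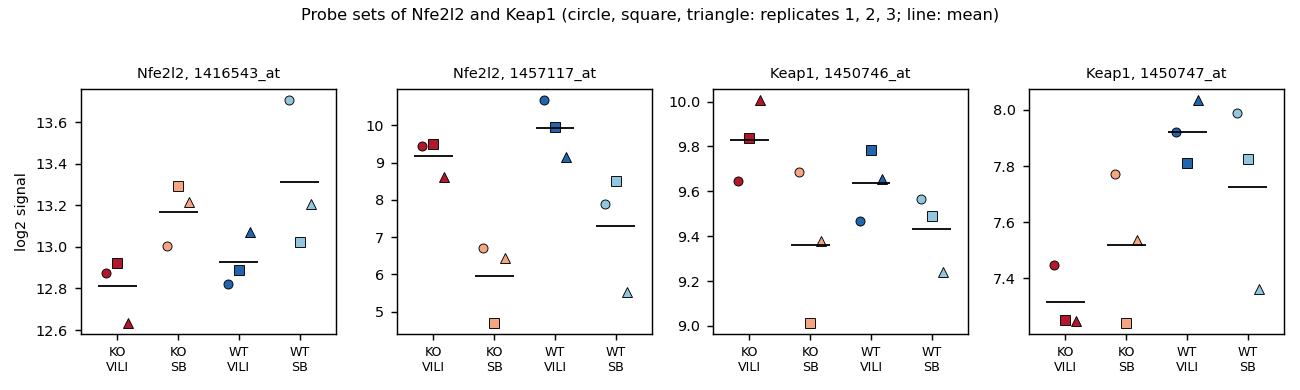
Log2 signal (vertical axis, own scale for each panel) of both probe sets, leading one first and identifiers above the panels, of Nfe2l2 and of Keap1 in nmMLCK-/- VILI, nmMLCK-/- SB, wild-type VILI and wild-type SB lungs; points are arrays and lines are means of 3. For Nfe2l2 the VILI arrays are above the SB arrays by the second probe set and not by the leading one; for the second of Keap1 the nmMLCK-/- VILI arrays (7.25 to 7.45) are all below the wild-type VILI arrays (7.81 to 8.04).

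Keap1 by its leading probe set differed by 0.47 ± 0.17 in nmMLCK-/- lungs, 0.20 ± 0.17 in wild-type lungs and 0.34 ± 0.12 over both, without passing (adjusted p = 0.0778, 0.457 and 0.052). The last of these passed with array medians set equal (0.38, adjusted p = 0.0355) and with quantile normalization (0.36, adjusted p = 0.0383). All of these values include the 2 low SB arrays, which had 9.01 and 9.24, against 9.38 to 9.69 on the other SB arrays. The second Keap1 probe set gave -0.20 ± 0.18 in nmMLCK-/- and 0.20 ± 0.18 in wild-type lungs. In the remaining probe sets, those of Gclc (0.88 ± 0.42 over both genotypes) and Gclm (0.81 ± 0.31) went the same way as the leading ones, as did 2 of the 3 others of Srxn1 (1.46 ± 0.69 and 1.44 ± 0.77). The dimmest Srxn1 probe set (0.14 ± 0.09) and the second of Txnrd1 (0.51 ± 0.34) were smaller. None of these 6 passed, and their values are with all arrays. The 2 low SB arrays were the lowest of their groups in each of the 6, so they enter these differences. The second Gclc probe set had 11.84 and 11.88 there, against 13.695 to 14.02 on the other SB arrays. The Srxn1 probe set with 1.44 had 5.64 and 6.51 there, against 8.75 to 9.78 on the other SB arrays and 8.85 to 10.35 on the VILI arrays. A second Slc7a11 probe set lay under the filter, with 2.22 to 2.63 in VILI and 2.05 to 3.71 in SB lungs, and did not follow the leading one.

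nmMLCK-/- against wild type asks whether loss of the kinase isoform alters these genes at rest, under VILI or in the response to VILI. None of the 10 members passed in the 3 comparisons (limma, adjusted p under 0.05). Under SB the differences ran from -0.34 ± 0.17 (Gsr, unadjusted p = 0.0791) to 0.16 ± 1.18 (Hmox1), and under VILI from -0.12 ± 0.17 (Nfe2l2) to 0.84 ± 1.15 (Slc7a11). The difference between the nmMLCK-/- and the wild-type response ran from -0.07 ± 1.25 (Srxn1) to 0.75 ± 1.63 (Slc7a11). Few genes of any kind passed here: 0.0487% of 12309 under SB, 0.106% under VILI and 0% for the difference of responses, where 619 had an unadjusted p under 0.05. With standard errors above 1 log2 for Hmox1, Srxn1 and Slc7a11 in the difference of responses, a difference of a factor of 2 in these genes was not detectable. For the second Keap1 probe set the nmMLCK-/- VILI arrays had 7.45, 7.25 and 7.25, against 7.92, 7.81 and 8.04 in wild-type VILI arrays. These groups did not overlap, but the difference of -0.61 ± 0.18 did not pass (unadjusted p = 0.00594, adjusted p = 0.377).

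The proteins that steer NRF2, other than KEAP1, were read from a list. Of 11 regulators tested, 5 were higher and 1 lower under VILI over both genotypes, where 14.1% of all genes were higher and 22.6% lower, with a median of 0.41 log2 against -0.05 for all genes. The small MAF genes, whose proteins pair with NRF2 and, as homodimers, repress its sites, rose: Maff by 1.72 ± 0.31 (adjusted p = 0.00217), Mafk by 0.88 ± 0.08 (7.8e-05) and Mafg by 0.58 ± 0.15 (0.0145). Cul3, the scaffold of the ligase that KEAP1 serves, was among the 5. Btrc, which directs NRF2 to another ligase, fell by 1.10 log2 (SE 0.17, adjusted p = 0.00103). Bach1, which competes with NRF2 for its elements and represses Hmox1, rose by 0.32 ± 0.11 (adjusted p = 0.0363). The Bach1 call was lost in 8 of the 12 fits that leave out 1 array, among them those without nmMLCK-/- SB replicate 2 (0.24, adjusted p = 0.0605), wild-type SB replicate 3 (0.25, 0.0631) or any of the 6 VILI arrays (adjusted p from 0.0596 to 0.0735). Without both low SB arrays 4 regulators were higher and 2 lower, with Maff at 1.24 ± 0.09 and Mafk at 0.79 ± 0.07. Of all 12309 genes, 1783 were higher and 2499 lower in that fit.

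Of 23 other NRF2 targets tested (27 listed), 4 were higher and 7 lower over both genotypes (17.4% and 30.4%, near the 14.1% and 22.6% of all genes), with a median of 0.02 log2. Pgd, an NADPH-producing enzyme of the pentose phosphate pathway, rose by 0.61 ± 0.11 (adjusted p = 0.00193). The carbonyl reductase Cbr1 fell by 0.67 log2 (SE 0.07, adjusted p = 0.000115), the glutathione transferase Gsta3 by 0.78 (SE 0.10, adjusted p = 0.000364) and the epoxide hydrolase Ephx1 by 0.52 (SE 0.08, adjusted p = 0.00101). Without both low SB arrays 4 were higher and 9 lower, where 1783 of all 12309 genes were higher and 2499 lower. Enzymes that remove superoxide and peroxide gave 1 higher and 3 lower of 12 (8.33% and 25.0%, beside 14.1% and 22.6% of all genes), with Prdx3 at -0.32 ± 0.06, Prdx2 at -0.49 ± 0.13, Sod1 at -0.25 ± 0.07 and Glrx at 0.35 ± 0.12, the last not called without the 2 low SB arrays (0.32, adjusted p = 0.0856). The constitutive haem oxygenase Hmox2 (-0.22 ± 0.06) and the biliverdin reductase Blvrb (-0.35 ± 0.11) were lower, 2 of 11 genes of haem and iron handling (18.2%, where 22.6% of all genes were), and Blvrb was not called without the 2 low SB arrays (-0.27, adjusted p = 0.111). Metallothioneins, which also carry antioxidant response elements, rose: Mt1 by 2.20 ± 0.34 (adjusted p = 0.00103) and Mt2 by 2.72 ± 0.52 (adjusted p = 0.00324). Both values include the 2 low SB arrays and would be smaller without them. Mt1 had 10.94 and 11.11 there, 12.28 to 13.04 on the other SB arrays and 14.19 to 14.39 on the VILI arrays. Mt2 had 8.99 and 9.63 there, 11.30 to 12.32 on the other SB arrays and 13.46 to 13.91 on the VILI arrays.

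Slc7a11 is also a target of ATF4, the transcription factor of the amino acid and integrated stress response. Of 12 genes of that response, Atf4 itself rose by 0.59 ± 0.09 (adjusted p = 0.000932), Ddit3 fell by 0.52 log2 (SE 0.07, adjusted p = 0.000605) and 10 did not pass over both genotypes, so that 1 of 12 was called in each direction (8.33%, below the shares of all genes). Without the 2 low SB arrays 1 was higher and 4 lower, where 1783 of all 12309 genes were higher and 2499 lower.

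In the 2 low SB arrays the lists around the members are read against the shares of all genes, 32% and 32.1% below both others and 1.71% and 1.95% by 1 log2. All 12 ATF4 response genes were below both others in nmMLCK-/- SB replicate 2 and 11 of 12 in wild-type SB replicate 3, by at least 1 log2 in 7 and 4 genes. Of 11 NRF2 regulators 10 were below in each. Of the 23 other NRF2 targets 11 and 14 were below, by 1 log2 in 2 and 3, and of 12 superoxide and peroxide enzymes 4 and 0, with 8 and 11 of them above both others. For genes above both others by any margin, the share of all genes was not computed. Genes of the glucocorticoid response were below in 11 and 10 of 11, and Mt1 and Mt2 were at least 1 log2 below in both arrays. Mt2 had 11.67, 8.99 and 11.30 in nmMLCK-/- SB lungs and 12.32, 11.94 and 9.63 in wild-type SB lungs. What part the ATF4 or the glucocorticoid response has in the members' values was not tested.

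**Figure D5:**
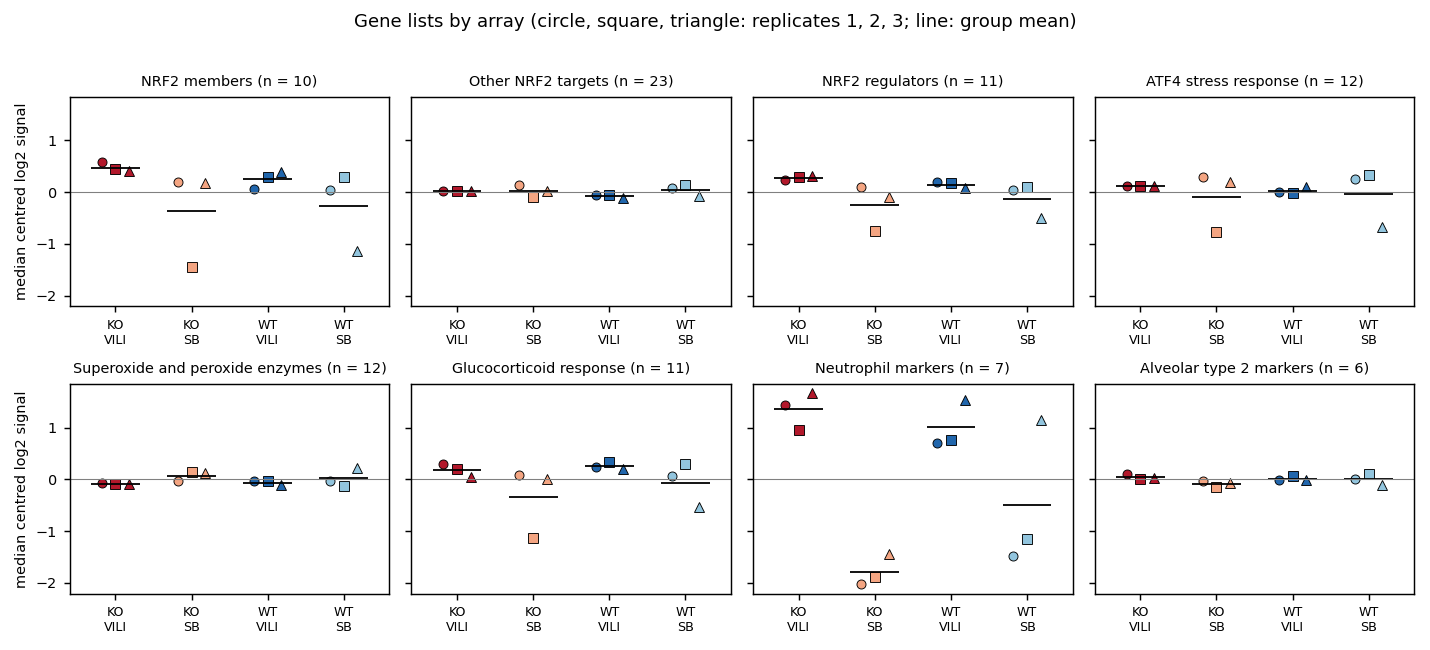
Median over the genes of a list of the log2 signal centred on each gene's mean over 12 arrays (vertical axis), for 8 lists in nmMLCK-/- VILI, nmMLCK-/- SB, wild-type VILI and wild-type SB lungs; points are arrays, lines are means of 3 and n is the number of genes. The NRF2 members, the NRF2 regulators, the ATF4 response and the glucocorticoid response are low in nmMLCK-/- SB replicate 2 (squares) and wild-type SB replicate 3 (triangles), and neutrophil markers are high in wild-type SB replicate 3 alone among SB arrays.

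Cell type markers moved in both low SB arrays, and only in part the same ones. All 7 neutrophil markers tested (10 listed) were at least 1 log2 above both others in wild-type SB replicate 3, with all 5 monocyte markers and 3 of 4 T and NK cell markers above by any margin. Of all genes 2.80% were at least 1 log2 above both others in that array, and 1.10% in nmMLCK-/- SB replicate 2. The share of all genes above both others by any margin was not computed. In nmMLCK-/- SB replicate 2, 1 neutrophil marker was above both others and 3 were below, Mmp8 by 1 log2. Of 5 monocyte markers 3 were above both others there and 1 below, and of 4 T and NK cell markers 2 were above and 0 below. The linear signal summed over 8 of the listed neutrophil genes, those with a probe set of their own, was 34716 to 57264 in nmMLCK-/- VILI and 4104 to 5291 in nmMLCK-/- SB lungs, against 30049 to 49861 in wild-type VILI and 6221 to 42282 in wild-type SB lungs; a log2 signal has no 0. All 4 B cell markers tested were above both others in both arrays, by a median of 0.72 log2 over the mean of the others in nmMLCK-/- SB replicate 2 and 1.42 in wild-type SB replicate 3. In nmMLCK-/- SB replicate 2 all 5 mesothelial (median 0.81 log2), 6 ciliated cell (0.32) and 2 erythroid markers (1.25) were above too. In wild-type SB replicate 3, 2 mesothelial markers were above and 2 below, and 1 ciliated cell marker was above and 3 below. Neither erythroid marker was above or below both others there (median -1.38 log2). Of 7 alveolar macrophage markers 1 was above and 4 below in nmMLCK-/- SB replicate 2, and 4 above and 3 below in wild-type SB replicate 3. No alveolar type 1, alveolar type 2 or endothelial marker was 1 log2 below both others in either array. By any margin the counts in nmMLCK-/- SB replicate 2 and wild-type SB replicate 3 were as follows. Of 6 alveolar type 2 markers 3 and 5 were below both others, and 2 and 0 above. Of 6 alveolar type 1 markers 2 and 3 were below, and 2 and 3 above. Of 7 endothelial markers 5 and 3 were below, and 2 and 3 above. Of all genes 32% and 32.1% were below. The part of any of these cells in the members' values was not tested.

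The genes whose centred profile over the 12 arrays was closest to the mean of the members, by root mean square difference, were Mettl21e (0.17 log2), Ampd3 (0.18), Cacna1c (0.20), Nampt (0.21), Tspan11 (0.22), Plxna2 (0.22), Arrdc2 (0.22) and Trp53inp1 (0.23). Gclc, at 0.15 log2, was the member closest to that mean, and Slc7a11 the farthest at 0.98. Nampt, which makes the NAD precursor nicotinamide mononucleotide, had 11.78, 11.84 and 11.67 in nmMLCK-/- VILI lungs and 11.37, 10.10 and 11.44 in nmMLCK-/- SB lungs. It had 11.04, 11.30 and 11.47 in wild-type VILI lungs and 11.13, 11.34 and 10.02 in wild-type SB lungs, with the same 2 arrays lowest. Ampd3, a deaminase of AMP, had 11.12 in nmMLCK-/- SB replicate 2 and 11.23 in wild-type SB replicate 3, and no less than 12.40 on the other 10 arrays. The genes were picked for this likeness, which is a description over 12 arrays of 4 groups.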

How the data were processed

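Total lung RNA was hybridised to 1 array per sample, 3 per group. The values deposited for each probe set are on a log2 scale, and the submitters' processing notes name MAS5 and GCRMA without saying which made them; a GCRMA-type summary compresses differences between dim probe sets. A genome build, not given in the sources used here, was not needed for them. Probe sets were named by the platform annotation (34945 with 1 symbol, 932 with several, 9160 with none). Those with a mean under the 40th percentile (log2 3.06) were left out, and the highest-mean probe set represents a gene, which gave 12309 genes.

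The fit used limma 3.58.1 under R 4.3.3 (lmFit and eBayes on 4 group means over 12 arrays), and adjusted p are Benjamini-Hochberg values over all genes tested, called under 0.05. A second fit over 22443 probe sets tested the members' other probe sets. Precision is limited by the number of arrays: the standard error had a median of 0.148 log2 for VILI against SB within a genotype. The fit was tested on simulated data with known changes. Promoter sequences are those of RefSeq.

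Named are all members, up to 4 called genes of each pathway list with the smallest p over both genotypes, Bach1, Mt1, Mt2, Mylk, marker genes and the 8 nearest profiles; Cul3 was named after its values were seen. The members, the lists and the 2 SB arrays that stand apart were chosen with earlier results of these data known. Alternatives were no filter, array medians set equal, quantile normalization, a replicate block, array weights, another variance prior, the mean over probe sets, each array left out and both low SB arrays left out; those for second probe sets and for genes and counts of the pathway lists were chosen after seeing the data.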

Additional observations from a re-analysis of the deposited data

How the results depend on the processing

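Gsr was higher under VILI in nmMLCK-/- lungs and over both genotypes in every alternative and every fit that left out 1 array; in wild type it was not called with the mean over probe sets (0.67, adjusted p = 0.082) or without 4 single arrays. The centred level of the members in each SB array moved by less than 0.04 under both other scalings.

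Members called for VILI against SB in wild type (1 with all arrays) were 2 with array weights and 0 with the mean over probe sets, and 0 to 1 with 1 array left out. In nmMLCK-/- (1) they were 3 with array weights, 2 with the mean over probe sets, 2 without both low SB arrays and 1 to 2 with 1 array left out. Over both genotypes (3) they were 1 with no filter, 1 with the replicate block, 5 with array weights, 4 with quantile normalization, 4 with the other variance prior, 2 with the mean over probe sets, 5 without both low SB arrays and 1 to 4 with 1 array left out. Of all 12309 genes, 4520 were called over both genotypes in the main fit and 5976 with array weights. The replicate block gave 3936, quantile normalization 4396 and the other variance prior 4571. The mean over probe sets gave 4510, and leaving out both low SB arrays 4282, with 2396 in nmMLCK-/- alone. The 2 low arrays were singled out with the members' values known, so counts without them are a description. In the 3 genotype comparisons no member was called under any alternative.

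Genes called with array weights were 3811 in wild type (1892 unweighted) and 4516 in nmMLCK-/- (2554); with 1 array left out they were 933 to 2052 and 1232 to 3301. For the difference of responses (0 genes) they were 1 with no filter, 11 with array weights, 11 without both low SB arrays and 0 to 6 with 1 array left out. For nmMLCK-/- minus wild type under SB (6 genes) they were 0 with the replicate block, 32 with array weights, 19 without both low SB arrays and 0 to 16 with 1 array left out. Under VILI (13 genes) they were 6 with no filter, 2 with the replicate block, 233 with array weights, 28 without both low SB arrays and 2 to 19 with 1 array left out.

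Hmox1 changed sign with array weights (-0.23 in wild type, -0.11 in nmMLCK-/-, -0.17 over both) and without both low SB arrays (-0.65, -0.79 and -0.72), as did Nqo1 (-0.23 over both with weights; -0.11 in nmMLCK-/- and -0.28 over both without the arrays) and Gclm (-0.043 in wild type with weights; -0.21 in wild type and -0.044 over both without the arrays). Nfe2l2 became 1.12 in wild type, 1.44 in nmMLCK-/- and 1.28 over both as the mean over its probe sets, which by construction takes in the second one. With 1 array left out, Hmox1 ran from -0.65 to 1.28 in wild type, -0.79 to 1.48 in nmMLCK-/- and -0.14 to 0.997 over both, Nqo1 from -0.44 to 0.25, -0.11 to 0.37 and -0.15 to 0.20, and Gclm from -0.21 to 0.56 in wild type. The difference of responses ran from -0.71 to 1.82 for Slc7a11, -1.19 to 0.75 for Srxn1 and -0.0049 to 1.502 for the second Nfe2l2 probe set, and Hmox1 under SB from -1.0005 to 1.62. Over the 3 genotype comparisons 65 of 600 member values in 20 alternatives had the opposite sign. The cause was not tested.

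Same-numbered arrays of different groups had deviations correlated at -0.628 to 0.398, so the numbers do not pair them; with the replicate block the calls over both genotypes of Txnrd1 (adjusted p = 0.0582) and Nfe2l2 (0.0606) were lost. Signals near the filter level, as in the dimmest Srxn1 probe set, limit what can be measured there.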
